A study of Mus musculus with 60 samples.

Results

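The splicing factor genes described here were all genes of the array whose symbol began with Srsf, Hnrnp, Sf3a, Sf3b, Prpf, Snrp or U2af. The rule used names only, no measured value. It took 176 probe sets, of which 174 carried 1 symbol and stood for 62 genes out of 18193 genes with a probe set of their own. The other 2 probe sets, shared by U2af1l4 and Igflr1, were left out. By family there were 10 SR protein genes (Srsf), 19 hnRNP genes, 9 genes of the SF3 complexes, 3 of U2AF, 12 Prpf genes and 9 Snrp genes.

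Expression was measured on 60 single-colour Affymetrix arrays, 1 tissue sample each, from heart, gastrocnemius (a calf muscle) and neocortex of male B6C3F1 mice. Every tissue had 4 groups of 5 arrays. Young controls were 5 months old. The other 3 groups were 30 months old and had been assigned to their diets at 14 months. The old control group stayed on the control diet. Another group was under calorie restriction (CR, given as 40% in the labels). The last group had a control diet that held resveratrol at 4.9 mg/kg a day. No group carried a transgene or a deletion, and no array came from a young animal on either diet, so each diet was compared with old controls alone. The labels do not tie the tissues to single mice. The limma p-values below rest on the spread between arrays within groups, pooled over all groups fitted together and moderated across genes. Groups outside a comparison thus also count in its p-value.

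Splicing removes introns from the primary transcript. U2AF binds the end of the intron, the U1 and U2 particles mark its borders, and the SF3a and SF3b complexes are parts of the U2 particle. Snrp genes encode the Sm ring shared by these particles and a few proteins specific to U1 or U2. Many Prpf proteins belong to the tri-snRNP that joins next or to the Prp19 complex that acts at the catalytic steps. SR proteins bind exons and mostly favour their inclusion, while hnRNPs coat the transcript and often oppose it. Several SR proteins and hnRNPs limit their own level through alternative splicing of their own transcripts. All of these genes are known as broadly expressed, with a few members, such as Snrpn, best known from neurons.

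The upstream sequences of 4 members on which the results turn are shown here: Srsf5, whose signal moved most in heart, and Hnrnpdl, Sf3b6 and Srsf9, whose brightest probe set moved the same way under CR in all 3 tissues. Each is the 250 bases before an annotated RefSeq start on GRCm38.p6, 5′ to 3′ on the gene's strand. A gene can have several such starts. They lie at chr12:80945249-80945498 (Srsf5, plus strand), chr5:100039223-100039472 (Hnrnpdl, minus strand), chr12:4817358-4817607 (Sf3b6, plus strand) and chr5:115326927-115327176 (Srsf9, plus strand). The Hnrnpdl window lies inside the span annotated for the gene (chr5:100033577-100039936), so it is not upstream of the whole gene. Those of Srsf5 and Srsf9 end a few bases inside the spans of their genes. Capitals mark matches, on either strand, to the 6 motifs searched.
Srsf5: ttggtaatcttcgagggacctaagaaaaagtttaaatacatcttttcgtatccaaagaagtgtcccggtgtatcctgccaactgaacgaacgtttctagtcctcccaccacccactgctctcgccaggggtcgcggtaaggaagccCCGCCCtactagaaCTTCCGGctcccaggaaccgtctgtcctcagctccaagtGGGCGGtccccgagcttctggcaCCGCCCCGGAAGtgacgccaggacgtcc
Hnrnpdl: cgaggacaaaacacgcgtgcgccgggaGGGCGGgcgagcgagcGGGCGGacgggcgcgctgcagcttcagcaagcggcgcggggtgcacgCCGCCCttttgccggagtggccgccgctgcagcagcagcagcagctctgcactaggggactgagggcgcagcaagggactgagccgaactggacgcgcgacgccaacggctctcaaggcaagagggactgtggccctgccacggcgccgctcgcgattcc
Sf3b6: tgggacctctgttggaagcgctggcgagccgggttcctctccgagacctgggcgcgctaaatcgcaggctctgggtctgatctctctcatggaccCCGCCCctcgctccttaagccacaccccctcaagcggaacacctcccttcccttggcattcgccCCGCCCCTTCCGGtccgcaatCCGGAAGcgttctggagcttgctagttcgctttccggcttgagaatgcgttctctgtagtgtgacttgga
Srsf9: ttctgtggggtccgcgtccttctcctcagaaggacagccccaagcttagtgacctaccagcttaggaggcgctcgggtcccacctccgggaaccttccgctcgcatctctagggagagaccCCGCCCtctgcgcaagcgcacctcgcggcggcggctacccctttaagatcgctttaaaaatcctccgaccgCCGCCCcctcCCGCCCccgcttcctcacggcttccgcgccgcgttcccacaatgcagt
The motifs were the ETS core CCGGAAG, the SP1 box GGGCGG, the NRF1 core GCGCATGC, the E-box CACGTG, the cyclic AMP element TGACGTCA and the YY1 core AAGATGG. An ETS core and an SP1 box can share a base where they abut, as they do once in the Srsf5 stretch. RefSeq windows were found for 55 of the 62 members. An ETS core lay in a window of 30.9% of these members, against 7.83% of 27025 genes of any kind. An SP1 box lay in 65.5% of members against 35.4% of genes. The other motifs were found in few windows: the NRF1 core in 5.45% of members and 2.56% of genes, the E-box in 9.09% and 6.86%, the cyclic AMP element in 1.82% and 1.77%, and the YY1 core in 1.82% and 5.18%. All genes of the table served for the second share, those silent in these tissues included. The matches describe letters in these windows and were not tested.

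The arrays bore out the tissue labels: all 8 heart muscle markers passed the level for testing in heart, all 10 skeletal fibre markers in gastrocnemius and all 10 neuronal markers in neocortex. Several measures outside the member genes moved with the groups, and their part in the results below was not tested. In gastrocnemius the 12 poly-A control probe sets, which report bacterial RNA added to each sample, had a mean log2 signal of 9.16 to 10.6 under CR and 9.84 to 10.3 under resveratrol, against 6.40 to 7.19 in old controls. The Gapdh 3′ minus 5′ difference in gastrocnemius was -0.218 to 3.23 in old controls and -0.301 to -0.232 on the diet arrays. Every old control thus lay above every diet array. The beta-actin difference overlapped there, at -0.175 to 1.40 in old controls, 0.0864 to 0.437 under CR and -0.154 to 0.578 under resveratrol. Old control replicate 1 was the highest of its group, at 3.23 for Gapdh and 1.40 for beta-actin. Without that array 32 members were called there under CR and 31 under resveratrol, against 33 and 31 with it, and Hnrnpa2b1 (adjusted p = 0.055 in limma), Hnrnpab, Hnrnpd and Sf3b2 were then not called under CR, nor Prpf38a and U2af1l4 under resveratrol. In heart the 3′ minus 5′ difference of the beta-actin control probe sets, a sign of RNA integrity and labelling, was 1.26 to 1.66 (log2) in old controls, 0.613 to 0.874 in young controls and 0.656 to 0.955 under the diets, so that it separated old controls from all groups they were compared with. In neocortex that difference was 0.453 to 0.603 in old controls, 0.664 to 0.771 under CR and 0.755 to 1.01 under resveratrol. Markers of other cells also moved in heart: the summed signal of 10 macrophage markers was 12822 to 18093 in old controls, 19832 to 24375 under CR and 17533 to 26836 under resveratrol. The sum of 6 fibroblast markers was 16917 to 35937, 41844 to 48750 and 35589 to 46979 in the same order. That of 4 red blood cell markers, 2 of them above the level for testing, was 1876 to 3175, 5584 to 22689 and 3384 to 7989. Not every marker of a list moved with its sum. In heart 4 of 10 macrophage and 2 of 6 fibroblast markers were called under CR, and 5 and 3 under resveratrol, all as rises. The lowest changes of these 2 lists under CR were -0.75 and -0.53 (log2). With age 3 of the 6 fibroblast markers fell in heart, Lum, Col3a1 and Col1a2, and their sum in young controls was 27966 to 44963. In gastrocnemius the sum of 7 endothelial markers was 4212 to 6499 in old controls, 2949 to 4034 under CR and 3311 to 4015 under resveratrol, and that of the macrophage markers, 8 of them above the level for testing, was 4911 to 6826, 6499 to 12865 and 7093 to 14942. Of the 7 endothelial markers 4 were called as falls under each diet, while Cldn5 was called as a rise under CR. Of the 8 macrophage markers 3 were called under each diet, all as rises. In neocortex 3 of 10 neuronal markers fell under CR and 5 under resveratrol, and the macrophage and microglia sum was 11369 to 13405 in old controls, 9389 to 11444 under CR and 12500 to 18646 under resveratrol. In such whole-tissue samples fewer cells of a type and less RNA per cell cannot be told apart.

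Of the 62 members, 61 passed the level for testing in heart, 61 in gastrocnemius and all 62 in neocortex. Each gene was read from its brightest probe set, and a call means an adjusted p under 0.05 in limma over all genes tested in the tissue. The gene that failed in heart and muscle was Srsf12, an SR protein gene.

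Tissues were compared in young controls. Only differences of at least 1 on the log2 scale were called here. Neocortex exceeded heart for 8 of 62 members (23.5% of all genes) and fell below it for 1 (24.2%). It exceeded gastrocnemius for 10 members (25.8%) and fell below it for 1 (23.7%). Gastrocnemius exceeded heart for 0 members (11.2%) and fell below it for 2 (15.5%), 1 of which was Srsf12, below the level for testing in both.

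Srsf12 gave signals of 538, 450, 464, 329 and 359 on the 5 young neocortex arrays. Its signals were 7.17 to 42.9 in heart and 2.15 to 17.8 in gastrocnemius, so that neocortex stood above both with no overlap. Heart and gastrocnemius lay under the levels for testing (60.4 and 69.3), and no difference is given against them. Snrpn, the neuronal relative of the Sm protein SmB, read 483, 426, 425, 423 and 355 in young neocortex against 44.5 to 237 in heart and 15.3 to 171 in gastrocnemius. The groups did not overlap, but some heart and gastrocnemius arrays lay under those levels, so that no size is given for this difference either. Both genes are among the 8 and 10 counted above. The opposite order was seen for Snrpb, which encodes SmB itself: its mean signal was 2855 ± 305 (SD, n = 5) in neocortex, 5633 ± 1565 in heart and 5986 ± 1075 in gastrocnemius, a difference of -1.06 ± 0.12 (log2, SE) from gastrocnemius with an adjusted p of 4.8e-12 in limma. Heart and gastrocnemius overlapped for this gene.

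Prpf40b, which encodes a U1-associated protein, averaged 758 ± 52.8 (SD) in neocortex, 232.8 ± 72.0 in heart and 342 ± 57.4 in gastrocnemius. U2af2, the large U2AF subunit, averaged 1815 ± 175 in neocortex against 903 ± 280 and 631 ± 121. For both genes the neocortex arrays lay above all others, and heart and gastrocnemius overlapped. Hnrnpab, an RNA-binding hnRNP, was lower in neocortex than in heart by 1.08 ± 0.11 (log2 difference -1.08, adjusted p = 3.7e-13). Snrpg, an Sm ring protein gene, was lower in gastrocnemius than in heart, with a log2 difference of -1.34 ± 0.14 (adjusted p = 7.2e-12).

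**Figure D1:**
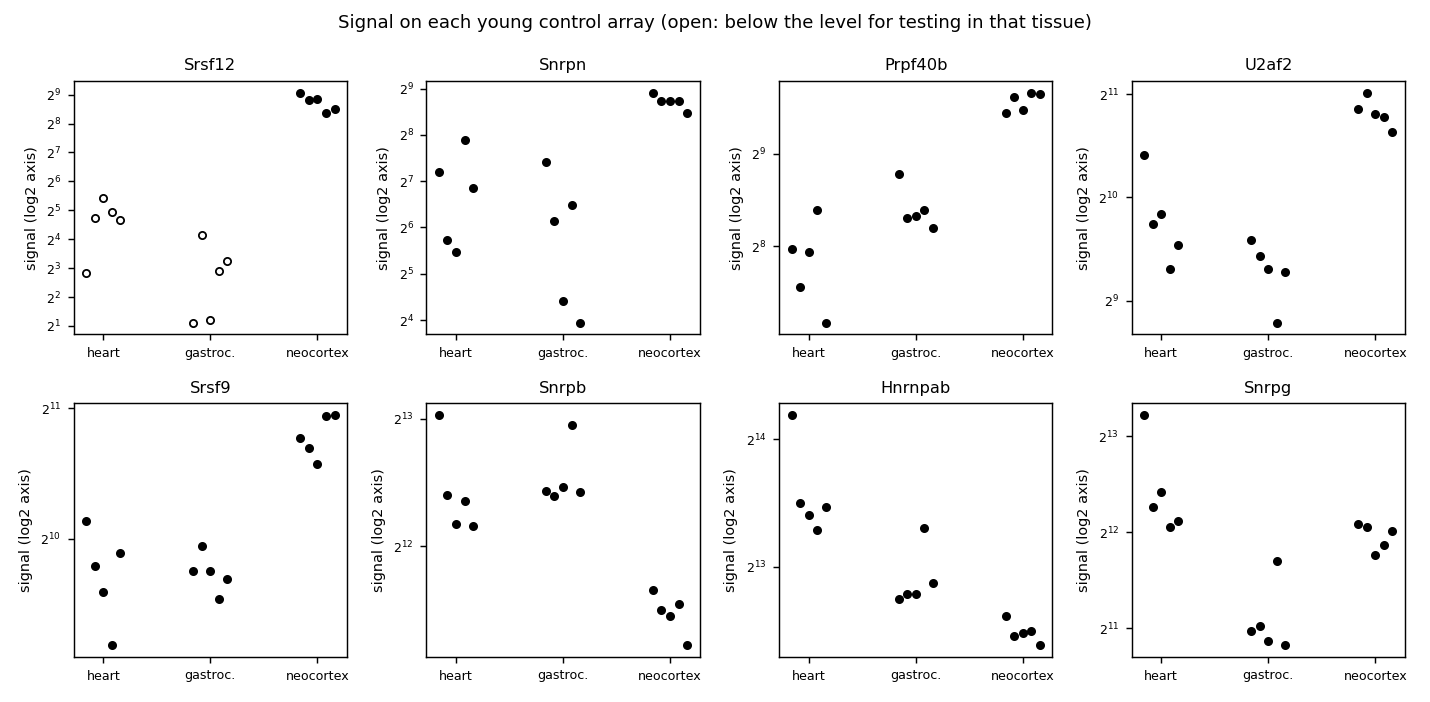
Signal of 8 members (panels, vertical log2 axis) on each of the 5 young control arrays of heart, gastrocnemius and neocortex. Open points mark genes whose mean in that tissue lay below the level for testing, and some filled Snrpn points also lie under it. Srsf12 and Snrpn stood highest in neocortex (355 to 483 for Snrpn), while Snrpb stood lowest there (mean 2855).

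Age was compared as old minus young controls. In heart 5 of 61 members rose (7.05% of all genes) and 4 fell (3.79%). In gastrocnemius 0 of 61 were called in limma (0.429% of genes were called). An unadjusted p under 0.05 was reached there by 9 of 61 members, beside 1786 of all 12831 genes. In neocortex 0 of 62 were called (1.46% of genes), and 5 of 62 reached that unadjusted p, beside 1948 of 13057 genes. In gastrocnemius 3 members were called without young control replicate 4 and 2 without CR replicate 2, and in neocortex 1 without young control replicate 1. By the methods' test at unadjusted p ≤ 0.01, 3 members differed with age in gastrocnemius.

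The falls in aged heart included SR proteins, in the comparison in which the beta-actin difference and the fibroblast markers above also moved. Srsf2, a regulator of exon inclusion, read 9670, 6812, 6403, 5080 and 5166 on young arrays and 3381, 3668, 4763, 3871 and 2932 on old ones. The groups did not overlap, and the gene fell by 0.81 ± 0.15 (log2, SE, adjusted p = 0.0012 in limma), while its brightest plain _at probe set gave 0.22 with no call (adjusted p = 0.72). Srsf5, an SR protein gene first known as an insulin-induced transcript, fell by 0.66 ± 0.16 (adjusted p = 0.0081) from a mean signal of 6778 ± 1465 (SD, n = 5) to 4265 ± 801, with 1 pair of arrays out of order. Hnrnpll, a regulator of alternative exons in immune cells, fell by 0.63 ± 0.14 (adjusted p = 0.0033) and Hnrnpa0 by 0.43 ± 0.11 (adjusted p = 0.0082). Prpf3, a tri-snRNP protein, rose by 0.66 ± 0.21 (adjusted p = 0.046), Sf3b2 of the SF3b complex by 0.63 ± 0.18 (adjusted p = 0.020), Hnrnpr by 0.48 ± 0.12 (adjusted p = 0.0099; -1.08 and no call on its brightest plain _at probe set), Prpf19, the ubiquitin ligase of the Prp19 complex, by 0.36 ± 0.09 (adjusted p = 0.0079) and Hnrnpul1 by 0.29 ± 0.09 (adjusted p = 0.034). Without young control replicate 1 the heart count was 15. Without that array and old control replicate 4, the least like their groups, Srsf5 changed by -0.45 with an adjusted p of 0.063.

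Under CR the heart showed calls both ways: 8 of 61 members rose (7.94% of all genes) and 11 fell (14.1%). The median change of the members was -0.15 on the log2 scale against 0.00048 for all genes. Srsf5 rose most. Its signals were 4388, 3906, 4634, 3131 and 5265 in old controls and 11036, 12580, 11726, 9265 and 8073 under CR. Every CR array lay above every old control, and the rise was 1.31 ± 0.16 (log2, SE, adjusted p = 2.6e-06 in limma), or 2.48-fold. Among hnRNPs 4 of 19 rose, led by Hnrnpll (0.58 ± 0.14) and Hnrnpdl (0.55 ± 0.11), and 2 fell, Hnrnph1 (by 0.50 ± 0.10) and Hnrnpa2b1 (by 0.41 ± 0.13). Prpf18, a factor of the second catalytic step, read 821, 736, 748, 749 and 797 in old controls and 1177, 1159, 1188, 1180 and 1045 under CR. It rose by 0.58 ± 0.11 (adjusted p = 0.00026).

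The SF3 complexes gave the deepest called fall in heart: 3 of 9 genes fell and 1 rose under CR. Sf3a1, the large subunit of SF3a, read 797, 1006, 811, 820 and 945 in old controls and 488, 520, 436, 369 and 516 under CR, with no overlap. It fell by 0.92 ± 0.15 (adjusted p = 0.00011). Sf3b3 fell by 0.71 ± 0.13 (adjusted p = 0.00020) and Sf3a2 by 0.37 ± 0.12 (adjusted p = 0.032). Of 9 SR proteins, Srsf9, Srsf1 and Srsf3 fell, by 0.63 ± 0.17, 0.50 ± 0.15 and 0.46 ± 0.16. Prpf8, the tri-snRNP protein at the heart of the catalytic core, fell by 0.36 ± 0.10 (adjusted p = 0.011), and Prpf3 by 0.63 ± 0.21 (adjusted p = 0.035). Of 9 Snrp genes Snrpc rose, by 0.34 ± 0.11, and Snrpe fell, by 0.46 ± 0.14. No U2AF gene was called: U2af1 changed by -0.15 ± 0.12 and U2af2 by -0.22 ± 0.18.

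Resveratrol gave 11 of 61 members that rose in heart (7.08% of all genes) and 7 that fell (10.5%). Its comparison used the same 5 old control arrays as the comparisons with age and with CR, so the 3 sets of values are not independent. Srsf5 read 7721, 6485, 6928, 10241 and 10440 under resveratrol, again above every old control, a rise of 0.96 ± 0.16 (log2, SE, adjusted p = 0.00015 in limma). Srsf2 rose by 0.64 ± 0.15 (adjusted p = 0.0047), and its CR value was 0.28 ± 0.15 (adjusted p = 0.20). Hnrnpll rose by 0.60 ± 0.14, with signals of 1820 to 2289 against 1217 to 1487 in old controls. Of the 9 Snrp genes 4 rose and none fell: Snrpb2, the U2 B′′ protein, by 0.59 ± 0.15, Snrpd3 by 0.50 ± 0.12, Snrpb by 0.43 ± 0.12 and Snrpc of U1 by 0.38 ± 0.11. U2af1l4, a relative of the small U2AF subunit, rose by 0.45 ± 0.10 (adjusted p = 0.0025). The falls included Prpf3 (by 0.72 ± 0.21), Sf3a1 (by 0.69 ± 0.15), Hnrnpul1 (by 0.50 ± 0.09), Prpf8 (by 0.49 ± 0.10), Sf3b3 (by 0.46 ± 0.13) and Sf3a2 (by 0.45 ± 0.12).

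**Figure D2:**
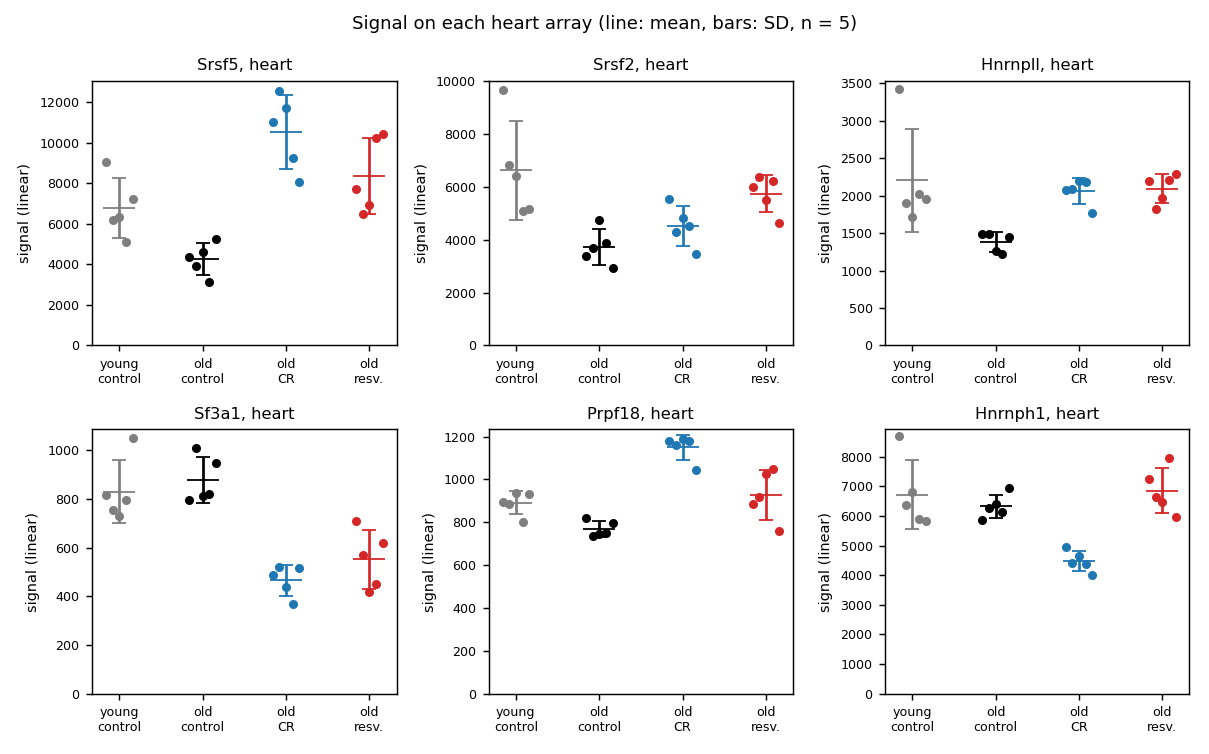
Signal (linear, vertical axis) of 6 members on each heart array, by group, with the mean and SD of 5 arrays. Srsf5 lay at 3131 to 5265 in old controls and at 8073 to 12580 under CR, and Hnrnph1 lay at 4001 to 4937 under CR, below all arrays of the other groups.

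The 2 diets were also compared with each other in heart. Here 0 of 61 members were higher under CR in limma (1.43% of all genes) and 4 were lower (2.57%). At an unadjusted p under 0.05, 20 of the 61 differed, beside 2297 of 13285 genes. Hnrnph1, which binds G-rich exon and intron elements, read 4937, 4410, 4651, 4381 and 4001 under CR and 7246, 6652, 6467, 7938 and 5954 under resveratrol. It was lower under CR by 0.61 ± 0.10 (log2 difference -0.61, adjusted p = 0.00087). U2af1l4 differed by -0.52 ± 0.10, Hnrnpr by -0.43 ± 0.12 and Hnrnph2 by -0.43 ± 0.11. The Hnrnpr difference turned to 0.13 with probe sets averaged and to 0.79 on its brightest plain _at probe set, neither of them called. This count depended on the arrays in the fit: it was 11 without young control replicate 1, 10 without resveratrol replicate 5 and 2 without any 1 of CR replicates 2, 4 and 5 or resveratrol replicates 2 and 4.

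In gastrocnemius 33 of 61 members were called under CR: 17 rose (17.5% of all genes) and 16 fell (13.6%). All genes together had a median shift of 0.10 (log2), the members one of -0.07. Of the 9 Snrp genes 7 rose and none fell, with a median change of 0.50. Of 9 SR proteins 1 rose and 5 fell, with a median of -0.40, where Srsf11 and Srsf6 were called as rises (0.67 and 0.29) with probe sets averaged. Of 19 hnRNPs 3 rose and 7 fell, with a median of -0.26, of 9 SF3 genes 3 rose and 1 fell, and of 12 Prpf genes 3 rose and 3 fell. No U2AF gene was called.

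Snrpd3, an Sm ring protein, showed the largest rise. Its signals were 919, 1408, 1520, 1272 and 1480 in old controls and 2963, 2924, 3128, 2846 and 4006 under CR. The groups were well apart, and the rise was 1.28 ± 0.23 (log2, SE, adjusted p = 0.00032 in limma). Snrpe, another Sm ring protein, read 7280, 4973, 4512, 5017 and 4671 in old controls and 6534, 15769, 9487, 8129 and 8095 under CR. Old control replicate 1 overlapped the CR arrays, and the rise was 0.81 ± 0.17 (adjusted p = 0.0014). Snrpg rose by 0.65 ± 0.17, Snrpb2 by 0.56 ± 0.14, Snrpa1 of U2 by 0.50 ± 0.16, Snrpb by 0.45 ± 0.12 and Snrpc by 0.44 ± 0.10. Sf3a2 rose by 1.04 ± 0.25 (adjusted p = 0.0040) although CR replicate 2, at 837, lay below all old controls (869 to 1079). Prpf4 rose by 0.89 ± 0.21, Prpf39 by 0.88 ± 0.14 and Hnrnpk, a poly-C binding protein, by 0.83 ± 0.13. With probe sets averaged Prpf39 gave -0.084 and Snrpa1 -0.068, neither of them called.

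The falls were led by Hnrnph1, with 7745, 6585, 5348, 5409 and 5733 in old controls and 3734, 2835, 3071, 2800 and 3112 under CR. Every CR array lay below every control, and the gene fell by 0.98 ± 0.11 (log2, SE, adjusted p = 3.9e-06 in limma). Its other probe set, an _x_at, rose by 0.64 ± 0.22 (adjusted p = 0.028), and their average gave -0.17 with no call. Srsf9 fell by 0.83 ± 0.14, Prpf8 by 0.82 ± 0.29, Srsf4 by 0.74 ± 0.18, Hnrnpul2 by 0.72 ± 0.13, Prpf38b by 0.72 ± 0.13 and Hnrnph3 by 0.64 ± 0.14. Prpf18, which rose in heart, fell here by 0.64 ± 0.12 (adjusted p = 0.00037), from 867 to 1028 in old controls to 536 to 644 under CR. Sf3b1, the largest SF3b subunit, fell by 0.54 ± 0.11 (adjusted p = 0.00075). With probe sets averaged Sf3b1 gave 0.12 and Prpf38b 0.29, neither of them called.

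Resveratrol in gastrocnemius gave 16 of 61 members that rose (9.42% of all genes) and 15 that fell (9.26%). Of the 9 Snrp genes 6 rose and none fell, and of the 9 SR proteins 1 rose and 6 fell. With probe sets averaged, the rise, that of Srsf2, and the falls of Srsf11 and Srsf6 turned sign. The values stood beside those of CR as follows, with the same old controls behind both. Snrpd3 rose by 1.26 ± 0.23, to 2491 to 3701 from 919 to 1520. Sf3a2 rose 2.30-fold (adjusted p = 0.0022) and did not overlap the old controls, at 1745 to 2919. Snrpe rose by 0.78 ± 0.17, Snrpb2 by 0.74 ± 0.14 and Hnrnpk by 0.70 ± 0.13. Prpf18 fell by 0.78 ± 0.12 (adjusted p = 0.00011), Hnrnph1 by 0.73 ± 0.11 (adjusted p = 0.00019), Srsf9 by 0.67 ± 0.14 and Srsf6 by 0.61 ± 0.11, the last giving 0.063 and no call with probe sets averaged. Srsf5, which rose in heart, fell by 0.52 ± 0.14 (adjusted p = 0.012). Between the diets 0 of 61 members differed in limma, where 0.561% of all genes were called. An unadjusted p under 0.05 was reached by 5 of 61 members, beside 1689 of 12831 genes.

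**Figure D3:**
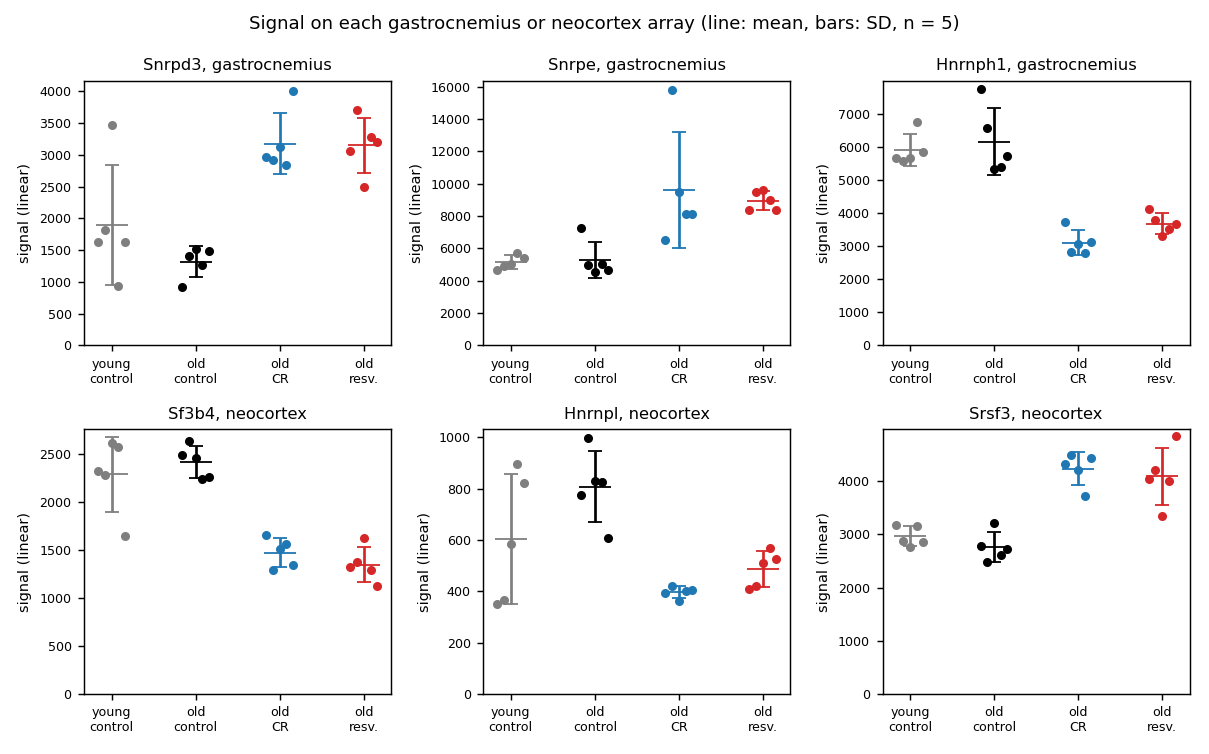
Signal (linear, vertical axis) of 3 members in gastrocnemius and 3 in neocortex on each array, by group, with the mean and SD of 5 arrays. Snrpd3 reached 2846 to 4006 under CR against 919 to 1520 in old controls, and Sf3b4 fell from 2244 to 2638 in old controls to 1286 to 1653 under CR.

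In gastrocnemius the probe sets of 1 gene often disagreed, so that a call depended on the probe set that stood for the gene. Among 41 members with at least 2 probe sets tested, 14 had probe sets called in opposite directions under CR (7.85% of all such genes) and 11 under resveratrol (4.71%). The same count was 1 of 39 in heart under CR, for Srsf1 (3.77% of such genes), and 0 under resveratrol (1.36%), and in neocortex it was 4 of 41 under CR (2.45%) and 5 of 41 under resveratrol (3.39%). The span between the highest and lowest change of a gene's probe sets had a median of 1.13 (log2) over the 41 members in gastrocnemius under CR, against 0.75 over 5731 genes. Members have up to 7 probe sets, and more probe sets give a wider span.

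For Hnrnpf, an hnRNP close to Hnrnph1, the _a_at probe set fell by 1.44 ± 0.15 under CR (log2, SE, adjusted p = 8.2e-07 in limma over probe sets) and the plain _at one by 1.24 ± 0.13, while an _x_at probe set rose by 0.71 ± 0.21 (adjusted p = 0.012). The brightest probe set of that gene, also an _x_at, changed by 0.19 ± 0.18 and gave no call. For Hnrnpu, a nuclear matrix hnRNP, a plain probe set fell by 1.76 ± 0.19, from a mean signal of 3039 to 901, and another rose by 0.77 ± 0.13, from 892 to 1526. For Srsf11 the brightest probe set fell by 0.49 ± 0.12, and a dimmer plain one rose by 1.84 ± 0.29. All 6 probe sets of Srsf1 gave values from -1.68 to 0.21, and 5 of them fell. Snrpd3 was the plain case, with 3 probe sets that all rose under CR.

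The probe sets that share probes with other transcripts, marked _x_at by the maker, did not centre on 0 in gastrocnemius. Over all 1717 of them the median change was 0.38 (log2) under CR and 0.31 under resveratrol, against 0.17 and 0.11 for 20273 plain _at probe sets. The 17 member probe sets of that kind had medians of 0.42 and 0.35, and the 89 plain ones -0.06 and 0.02. Where a gene's probe sets were averaged, 20 members were called under CR in place of 33, and 16 in place of 31 under resveratrol. The part of transcript ends, of related transcripts and of RNA handling in these disagreements was not tested.

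**Figure D4:**
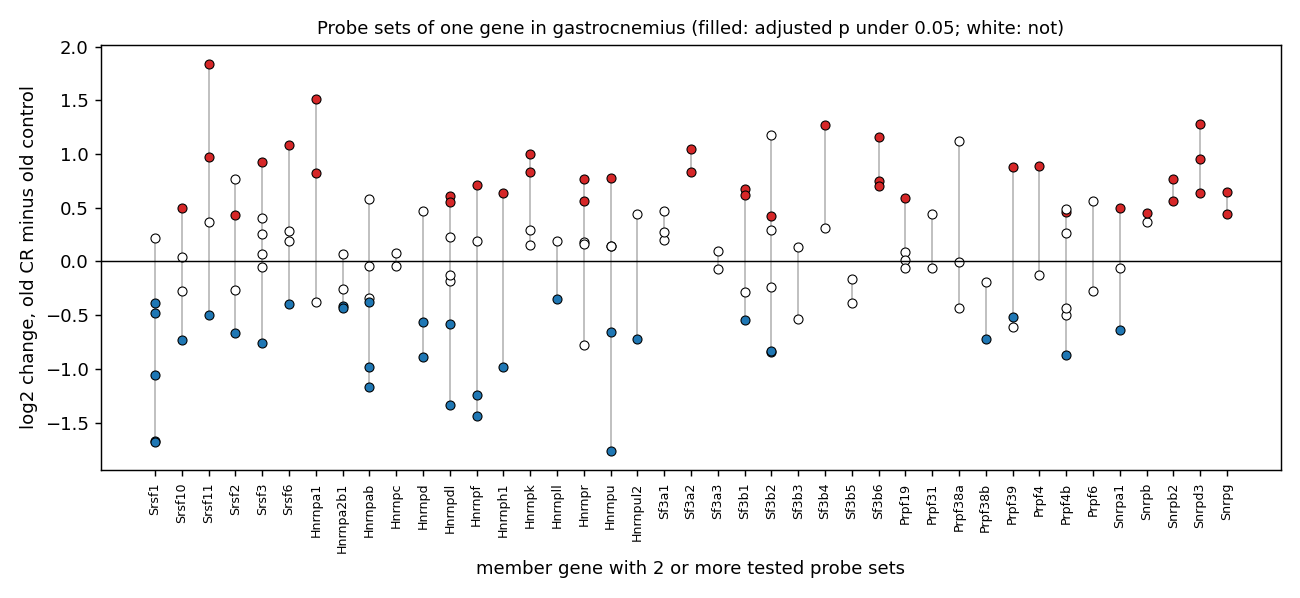
Change under CR in gastrocnemius (vertical axis, log2, old CR minus old control) of every tested probe set of the 41 members with at least 2; filled points had an adjusted p under 0.05, red for a rise and blue for a fall, and a grey line spans each gene. Lines that join red and blue points mark the 14 genes called both ways.

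In neocortex 16 of 62 members rose under CR (13.1% of all genes) and 12 fell (17.5%). Hnrnpl, which binds CA repeats, showed the largest change, from 773, 999, 829, 827 and 609 in old controls to 394, 420, 360, 401 and 407. The groups did not overlap, and the gene fell by 1.01 ± 0.20 (log2, SE, adjusted p = 0.00050 in limma). Young controls, at 351 to 898, spanned both groups. Sf3b4 of the SF3b complex read 2491, 2638, 2456, 2244 and 2256 in old controls and 1653, 1286, 1510, 1562 and 1347 under CR. It fell by 0.72 ± 0.11 (adjusted p = 3.6e-05). Sf3a1 fell by 0.69 ± 0.09 (adjusted p = 8.0e-06) and Sf3a2 by 0.65 ± 0.10 (adjusted p = 5.6e-05), while Sf3a3, Sf3b6 and Sf3b2 rose by 0.46 ± 0.10, 0.38 ± 0.08 and 0.34 ± 0.08. The SF3 complexes thus had 3 rises and 3 falls among 9 genes. The Sf3b2 rises of both diets rest on 1 probe set: averaged over its probe sets the gene gave -0.060 under CR and -0.15 under resveratrol, with no call.

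Srsf3, the smallest SR protein, read 2783, 2481, 3217, 2620 and 2734 in old controls and 4332, 4501, 4209, 3716 and 4437 under CR. It rose by 0.62 ± 0.09 (adjusted p = 1.2e-05 in limma). Prpf38a rose by 0.61 ± 0.10 (adjusted p = 6.7e-05). Of 9 Snrp genes 4 rose and none fell: Snrpb2 by 0.50 ± 0.10, Snrpd3 by 0.49 ± 0.09, Snrpb by 0.39 ± 0.09 and Snrpn by 0.32 ± 0.12. Hnrnpd (AUF1), an AU-rich element binding protein, fell by 0.64 ± 0.10, but its call turned over on the plain _at probe sets, where it rose by 0.24 (adjusted p = 0.047).

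Resveratrol in neocortex gave 15 of 62 members that rose (12.3% of all genes) and 9 that fell (13.9%). Sf3b4 fell by 0.85 ± 0.11 (adjusted p = 7.5e-06), Hnrnpl by 0.73 ± 0.20, Sf3a1 by 0.70 ± 0.09, Sf3a2 by 0.68 ± 0.10 and U2af2 by 0.57 ± 0.12. Sf3b2 rose by 0.58 ± 0.08, Srsf3 by 0.56 ± 0.09, Hnrnpr by 0.54 ± 0.10 and Hnrnpf by 0.52 ± 0.07. Of the 9 Snrp genes only Snrpb2 was called, up by 0.31 ± 0.10. On the plain _at probe sets 15 of 56 members were called in place of 24 of 62.

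Between the diets in neocortex 4 of 62 members were higher under CR (3.66% of all genes) and 8 lower (5.62%). U2af2 was higher by 0.44 ± 0.12 (log2, SE, adjusted p = 0.021 in limma), Snrpb by 0.36 ± 0.09 and Snrpd3 by 0.35 ± 0.09. Srsf10, a splicing repressor when dephosphorylated, was lower with a difference of -0.57 ± 0.12 (adjusted p = 0.0060), as were Hnrnpr (-0.45 ± 0.10) and Srsf6 (-0.43 ± 0.09). The count was 7 where probe sets were averaged and 7 where only the 2 groups were fitted.

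**Figure D5:**
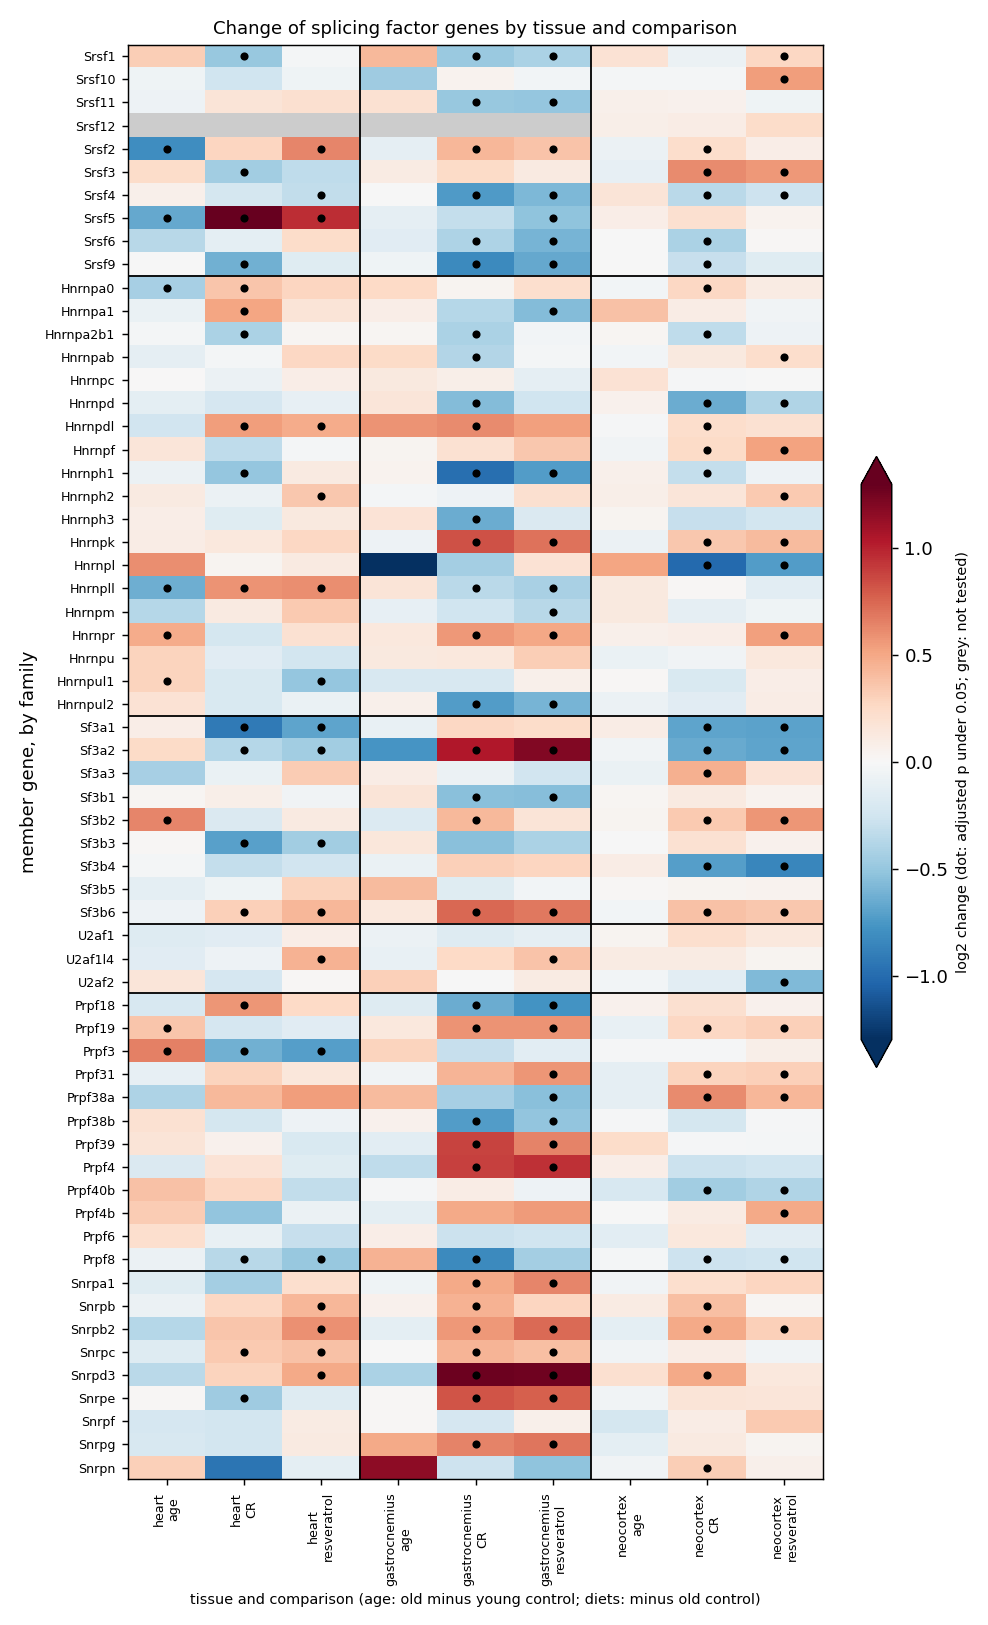
Log2 change of the 62 members (rows, by family) with age, CR and resveratrol in each tissue (columns); red is higher, blue lower, a dot marks an adjusted p under 0.05 and grey was not tested. Of the 9 Snrp genes in gastrocnemius, 7 were red with a dot under CR and 6 under resveratrol. Without a dot, Snrpn was blue under both diets (-0.27 and -0.52) and Snrpf under CR (-0.22). The age columns of gastrocnemius and neocortex held no dot.

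Whether a change differed between the 3 tissues was tested directly over 61 members. The change with age differed for 8 members (7.79% of all genes), that under CR for 28 (36%) and that under resveratrol for 30 (27.2%). Srsf5 under CR gave 1.31 in heart, -0.31 in gastrocnemius and 0.21 in neocortex (log2 changes, adjusted p of the difference 2.9e-08, limma F-test). Prpf18 gave 0.58, -0.64 and 0.21 (adjusted p = 3.4e-08), Sf3a2 -0.37, 1.04 and -0.65 (adjusted p = 8.9e-07), Snrpe -0.46, 0.81 and 0.17 (adjusted p = 3.9e-06) and Srsf3 -0.46, 0.25 and 0.62 (adjusted p = 0.00018), in the same order of tissues. Under resveratrol Sf3a2 gave -0.45 in heart and -0.68 in neocortex beside its rise in gastrocnemius (adjusted p = 9.9e-08), and Hnrnpll gave 0.60, -0.42 and -0.14 (adjusted p = 1.1e-06). With age, Srsf2 gave -0.81, -0.12 and -0.07 (adjusted p = 0.0022). With probe sets averaged the count under CR was 17 of 60.

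A few members were called in all 3 tissues. Under CR there were 7 such members of 61 (3.38% of 11111 genes tested in all 3) and under resveratrol 4 (1.48%), with the direction free to differ between tissues. Sf3b6, the SF3b protein that touches the branch site, rose under CR by 0.31 ± 0.10 in heart, 0.75 ± 0.20 in gastrocnemius and 0.38 ± 0.08 in neocortex, and under resveratrol by 0.43 ± 0.10, 0.68 ± 0.20 and 0.35 ± 0.08. Its neocortex signals were 2950, 3009, 3170, 3067 and 3177 in old controls and 3617, 4520, 3896, 3723 and 4386 under CR, with no overlap. Hnrnpdl rose under CR by 0.55 ± 0.11, 0.61 ± 0.22 and 0.23 ± 0.08, and its brightest plain _at probe set gave no call in any of them (0.081, -0.13 and -0.15). Hnrnph1 fell under CR by 0.50 ± 0.10, 0.98 ± 0.11 and 0.31 ± 0.07. In heart and neocortex its resveratrol values were 0.11 ± 0.10 and -0.07 ± 0.07, neither of them called, and with its probe sets averaged the CR falls were not called in any tissue (-0.12, -0.17 and -0.20). Hnrnpa2b1 (by 0.41 ± 0.13, 0.41 ± 0.13 and 0.33 ± 0.09), Prpf8 (by 0.36 ± 0.10, 0.82 ± 0.29 and 0.27 ± 0.09) and Srsf9 (by 0.63 ± 0.17, 0.83 ± 0.14 and 0.30 ± 0.08) fell under CR in the 3 tissues, though with probe sets averaged Hnrnpa2b1 was called in none of them. Sf3a2 was called in all 3 but in opposite directions. Under resveratrol Snrpb2 rose in all 3 (by 0.59 ± 0.15, 0.74 ± 0.14 and 0.31 ± 0.10), and Srsf4 fell in all 3. Hnrnpc, Hnrnpu, Sf3b5, Snrpf and U2af1 were called in no comparison of age or diet in any tissue, though single probe sets of Hnrnpu were, as above.

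Of 103 other splicing genes in 6 lists (SR protein kinases, other tri-snRNP and U1 subunits, U6 Sm-like proteins, Prp19 complex and catalytic step factors, exon junction complex and cap binding, other regulators), calls also ran both ways. With age 12 of 99 tested rose in heart (7.05% of all genes) and 3 fell (3.79%). In gastrocnemius 0 of 97 were called (0.429% of all genes). In neocortex 1 of 101 rose, the kinase gene Clk4 (by 0.44 ± 0.10), where 1.46% of all genes were called either way. Tra2b, an SR-like regulator, was called in heart with age and under both diets. It fell with age by 0.75 ± 0.16 and rose by 0.55 ± 0.16 under CR and by 0.57 ± 0.16 under resveratrol, against the same old controls. Lsm8 was called in the same directions, and Luc7l3, Fubp1 and Pcbp2 in the opposite ones. Under CR 3 of the listed genes rose in heart (7.94% of all genes) and 17 fell (14.1%). In gastrocnemius 22 rose (17.5%) and 23 fell (13.6%), and in neocortex 21 rose (13.1%) and 17 fell (17.5%). Under resveratrol 5 rose in heart (7.08%) and 13 fell (10.5%). The counts were 22 (9.42%) and 15 (9.26%) in gastrocnemius, and 22 (12.3%) and 12 (13.9%) in neocortex. The median change of these genes lay between -0.10 and 0.05 in all of these comparisons.

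The shares of all genes called under CR, given above, are also those to set beside the following counts by list. By list, under CR, 0 of 7 SR protein kinases rose and 1 fell in heart, 2 rose and 2 fell in gastrocnemius and 1 rose and 2 fell in neocortex. Srpk1, which phosphorylates SR proteins, fell in heart by 0.63 ± 0.19 and rose in gastrocnemius by 0.67 ± 0.17. Of 13 tri-snRNP and U1 subunits 0 rose and 2 fell in heart, 6 rose, led by Luc7l2 of U1 (by 1.33 ± 0.29), and Rbm25 fell (by 1.04 ± 0.16) in gastrocnemius, and 2 rose and 2 fell in neocortex. Of 9 Sm-like proteins, a list that also holds Lsm10 and Lsm11 of the U7 particle, 2 rose and 0 fell in heart, 4 rose and 1 fell in gastrocnemius and 3 rose and 1 fell in neocortex. Of the Prp19 complex and step factors 0 of 20 rose and 1 fell in heart, 4 of 19 rose and 7 fell in gastrocnemius, led by Bcas2 (by 1.34 ± 0.18), and 9 of 20 rose and 1 fell in neocortex, led by Plrg1 (by 0.63 ± 0.09). Of 9 exon junction and cap binding genes 0 rose and 4 fell in heart, 0 rose and 3 fell in gastrocnemius and 3 rose and 4 fell in neocortex. Upf1, the helicase of nonsense-mediated decay in that list, fell by 1.52 ± 0.45 in heart and by 1.15 ± 0.20 in neocortex. Of the other regulators 1 of 41 rose and 9 fell in heart, 6 of 40 rose and 9 fell in gastrocnemius and 3 of 43 rose and 7 fell in neocortex.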

How the data were processed

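Per the labels and the study's methods, RNA was extracted with Trizol, and biotin-labelled cRNA was hybridised to Mouse Genome 430 2.0 arrays. The authors deposited 1 linear signal intensity per probe set and array, made with GCOS 1.2, whose 2% trimmed mean is 500.002 to 500.004 on every array, so the values are already scaled. They were scaled once more to a common trimmed mean, floored at 1 and put on the log2 scale. Of 45037 non-control probe sets, 34945 name 1 gene, 932 several and 9160 none in the platform annotation. Each gene was read from the probe set whose log2 mean across all 60 arrays was highest, and tested in a tissue where its mean reached the 40th percentile (signal 60.4 in heart, 69.3 in gastrocnemius, 57.3 in neocortex). Fits used limma 3.58.1 (R 4.3.3; lmFit, eBayes with trend) on the 20 arrays of a tissue, or on all 60 for differences between tissues, two-sided, with Benjamini-Hochberg adjustment over all genes tested. The script was tested on simulated data. The number of arrays limits the precision. The files name no scan date or batch. Nor do they tie arrays of equal replicate number, and the main fits did not pair them. No 2 arrays of a tissue correlated above 0.941, and none was counted as a duplicate.

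Named genes were called members whose groups did not overlap (up to 6 a direction), members called in all 3 tissues, the 3 largest tissue differences, members with opposite probe sets, fixed reference members and the leading gene of each list. Some genes are named for their list, family or tissue difference though their groups overlap. Members, lists and tests were chosen with earlier results of these data known. Probe set positions, transcript sequences and protein sequences were not used here. The methods describe t-tests between pairs of groups, run here as an alternative beside quantile normalization, other filters and offsets, other probe set choices, a block and the loss of single arrays. Intakes given in the methods imply a smaller restriction than the label states.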

Additional observations from a re-analysis of the deposited data

Results flagged for a closer look

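Changes that differed between the tissues were marked for 8 members with age, 28 under CR and 30 under resveratrol, by limma's F-test on 61 members. Under CR the adjusted p of the difference was 2.9e-08 for Srsf5, 3.4e-08 for Prpf18, 8.9e-07 for Sf3a2, 3.9e-06 for Snrpe, 0.00018 for Srsf3 and 0.00019 for Hnrnph1. Under resveratrol it was 9.9e-08 for Sf3a2, 5.0e-07 for Srsf5, 1.1e-06 for Hnrnpll and 4.1e-06 for Hnrnph1. With age it was 0.00017 for Hnrnpll, 0.0022 for Srsf2 and 0.024 for Srsf5.

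Single arrays far from the other 4 of their group were looked for in 84 groups whose genes are described above, and 10 were found, where about 5% are marked when nothing is wrong. In heart these were young control replicate 1 for Hnrnpll (signal 3420) and for Sf3b6 (3982), young control replicate 5 for Sf3a1 (1050.4) and CR replicate 5 for Hnrnpll (1763) and for Prpf18 (1045). In gastrocnemius they were young control replicate 4 for Hnrnph1 (6749), young control replicate 5 for Sf3a2 (1123), old control replicate 1 for Snrpe (7280) and CR replicate 5 for Snrpd3 (4006). In neocortex it was resveratrol replicate 3 for Sf3b6 (3222).

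The poly-A control probe sets of gastrocnemius, outside the member genes, were 2.88 higher (log2) on the 10 diet arrays than on the 10 control arrays.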

How the results depend on the processing

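The probe set chosen for a gene moved the calls most. Of 178 calls (a member in a tissue and comparison), 93 stood, 57 lost the threshold and 28 turned sign when probe sets were averaged, 5 of them called the other way. With plain _at probe sets alone, added after seeing the data, 110 of 155 stood and 16 turned. With quantile normalization 163 of 178 stood and with log2(signal + 16) 178, and neither turned a sign. With a 60th percentile filter 178 stood, with no filter 167 and with only the 2 groups fitted 164. With the methods' t-test 132 stood after Benjamini-Hochberg and 145 at unadjusted p ≤ 0.01. The filters, the 2-group fit and the t-tests keep the same log2 change, so no sign could turn there. When single arrays were left out, 3307 of 3560 repeats of these calls stood, 253 lost the threshold and none turned. Repeats that dropped an array of neither compared group could not turn, since their log2 change stays the same.

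Counts that moved by over 1.5 times were these. With probe sets averaged: gastrocnemius age 1, CR 20, resveratrol 16, neocortex CR against resveratrol 7, and 17 members differing between tissues under CR. With plain _at probe sets: neocortex age 1, resveratrol 15. With the methods' t-test and Benjamini-Hochberg: heart age 2, neocortex CR against resveratrol 2. At unadjusted p: heart CR against resveratrol 12, gastrocnemius age 3, gastrocnemius CR against resveratrol 1. With only the 2 groups: CR against resveratrol 11 in heart, 7 in neocortex. Without the 2 arrays least like their group, also added later: heart CR against resveratrol 11, gastrocnemius age 2. For gastrocnemius minus heart in young controls: 4 with quantile normalization, 1 with log2(signal + 16), 4 without heart young control replicate 5, 5 and 4 without gastrocnemius young control replicates 1 and 2. Leaving out 1 array gave 6 to 15 for heart age, 2 to 11 for heart CR against resveratrol, 0 to 3 for gastrocnemius age, 0 to 1 for neocortex age and 2 to 5 for gastrocnemius minus heart. Over the 12 comparisons together, member probe sets gave 416 calls, 403 with quantile normalization and 371 with no filter.

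With probe sets averaged the turned changes (log2) were, in heart, Hnrnpr -0.20 (age) and 0.13 (CR against resveratrol), Srsf1 0.14 (CR) and Snrpc -0.017 (resveratrol). In gastrocnemius under CR they were Hnrnpdl -0.12, Prpf19 -0.030, Prpf38b 0.29, Prpf39 -0.084, Sf3b1 0.12, Snrpa1 -0.068, Srsf11 0.67 and Srsf6 0.29. Under resveratrol there they were Hnrnpa1 0.52, Hnrnpul2 0.0069, Prpf19 -0.024, Prpf38a 0.23, Prpf39 -0.20, Sf3b1 0.22, Srsf11 0.52, Srsf2 -0.076 and Srsf6 0.063. In neocortex they were Sf3b2 -0.060 and Srsf6 0.10 (CR), Hnrnpd 0.27, Prpf19 -0.14, Sf3b2 -0.15 and Srsf1 -0.071 (resveratrol) and Prpf6 -0.17 (CR against resveratrol). With plain _at probe sets they were, in heart, Hnrnpr -1.08 and Srsf2 0.22 (age) and Hnrnpr 0.79 (CR against resveratrol). In gastrocnemius they were Hnrnpdl -0.13, Hnrnpll 0.19 and Sf3b2 -0.24 (CR), Hnrnpa1 1.56 and Hnrnpll 0.27 (resveratrol). In neocortex they were Hnrnpd 0.24, Hnrnpdl -0.15 and Sf3b2 -0.12 (CR), Hnrnpd 0.42, Prpf19 -0.11, Sf3b2 -0.12 and Srsf1 -0.028 (resveratrol) and Hnrnpf 0.073 (CR against resveratrol).

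The replicate block used numbers that no label ties to a batch. The median correlation of same-numbered deviations was 0.0067 in heart, 0.013 in gastrocnemius and 0.030 in neocortex. For different numbers it was -0.0032, 7.4e-05 and -0.012, and such medians cannot show whether arrays shared a batch. The block kept 174 of 178 calls, with 32 members in place of 33 in gastrocnemius under CR and 20 in place of 19 in heart under CR. No count of calls moved by over 1.5 times under it. Signal over background limits Srsf12 outside neocortex and Snrpn in heart and muscle.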
